A study of Rattus norvegicus with 9 samples.

Results

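Potassium and calcium channel subunits were followed in rat thoracic aorta, in offspring of diabetic mothers (DMO) and of control mothers (CMO). Members were taken by gene symbol alone: potassium channel genes (Kcn), voltage-gated calcium channel genes (Cacna, Cacnb and Cacng), numbered TRPC, TRPV and TRPM genes, inositol trisphosphate receptors (Itpr) and ryanodine receptors (Ryr). This gave 101 of the 9653 gene symbols that the arrays hold with a feature of their own, measured by 107 probes. There were 68 potassium channel genes, 19 calcium channel genes, 10 genes with a Trp symbol and 4 release channels of the calcium store. Trpc4ap, which encodes a protein that binds TRPC4 and is no channel, was taken in by its symbol and is kept. Of the 101 genes, 95 had 1 probe and 6 had 2.

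Each 2-colour Agilent array set RNA of 1 DMO animal against RNA of 1 CMO animal, extracted with Trizol. Strain, age, sex, litter and the way in which the mothers were made diabetic are not given in the labels, and nothing else is said to set the groups apart. Animals 193, 194, 197, 199 and 220 (DMO) were set against 189, 190, 191, 192 and 216 (CMO), and each pair is named below by its DMO animal. Pairs 193, 197, 199 and 220 were measured on 2 arrays, with the DMO animal on Cy3 and on Cy5, and pair 194 on 1 array, with it on Cy3. Values are log ratios as deposited, with a base that is not stated and was taken as log2. No source used here says on which group's side a positive ratio lies, so no value below is called higher in DMO or in CMO. The arrays of swapped dyes were taken as already turned by the authors, which is also not stated, and the other reading is given where a result rests on this. A pair's value is the mean of its arrays, a gene's mean is over the 5 pairs, and errors are the SD over pairs (n = 5). A log ratio carries no level, so the presence of smooth muscle markers in the aortas could not be checked, and fewer cells of a type cannot be told apart from less RNA per cell.

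The tone of an artery depends on the membrane potential of its smooth muscle. Open potassium channels hold that potential negative and keep the voltage-gated calcium channels closed, while calcium that enters through these and TRP channels, or leaves the store through inositol trisphosphate and ryanodine receptors, drives contraction. Calcium released from the store also opens the large conductance calcium-activated potassium (BK) channel, which limits contraction, and endothelial SK and IK channels pass hyperpolarisation on to the muscle.

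No channel gene passed the test between the groups. In limma's moderated test over all 19478 features, none reached an adjusted p under 0.05 (0%), members included, and the smallest adjusted p of a member was 0.926. At an unadjusted p under 0.05, limma passed 4 members, against 929 features (4.77%) in all. These 4 were Kcnh2, Kcnq1, Kcnf1 and Kcnmb1, and all had negative means, a side on which 2.54% of all features passed. No member passed on the positive side, where 2.23% of all features did. An ordinary test without moderation passed 1 feature (0.00513%) after adjustment, which was no member. The median of the member means was -0.011, beside 0.0037 over all features, and 46 members had a positive mean, against 51.3% of all features. Member means ran from -0.61 for Kcnh2 to 0.57 for Itpr3.

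The sign of a member was seldom the same in every pair. It was so for 8 members, against 6.16% of all features. Itpr3, Kcna5 and Cacng2 were positive in all 5 pairs (3.34% of all features), and Kcnh2, Kcnq1, Kcnf1, Kcnmb1 and Cacna1f were negative in all 5 (2.82%). Kcnh2 and Kcnq1 also kept their sign on all 9 arrays, which 0.667% of all features did. Whether these counts of members differ from the shares of all features was not tested.

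**Figure D1:**
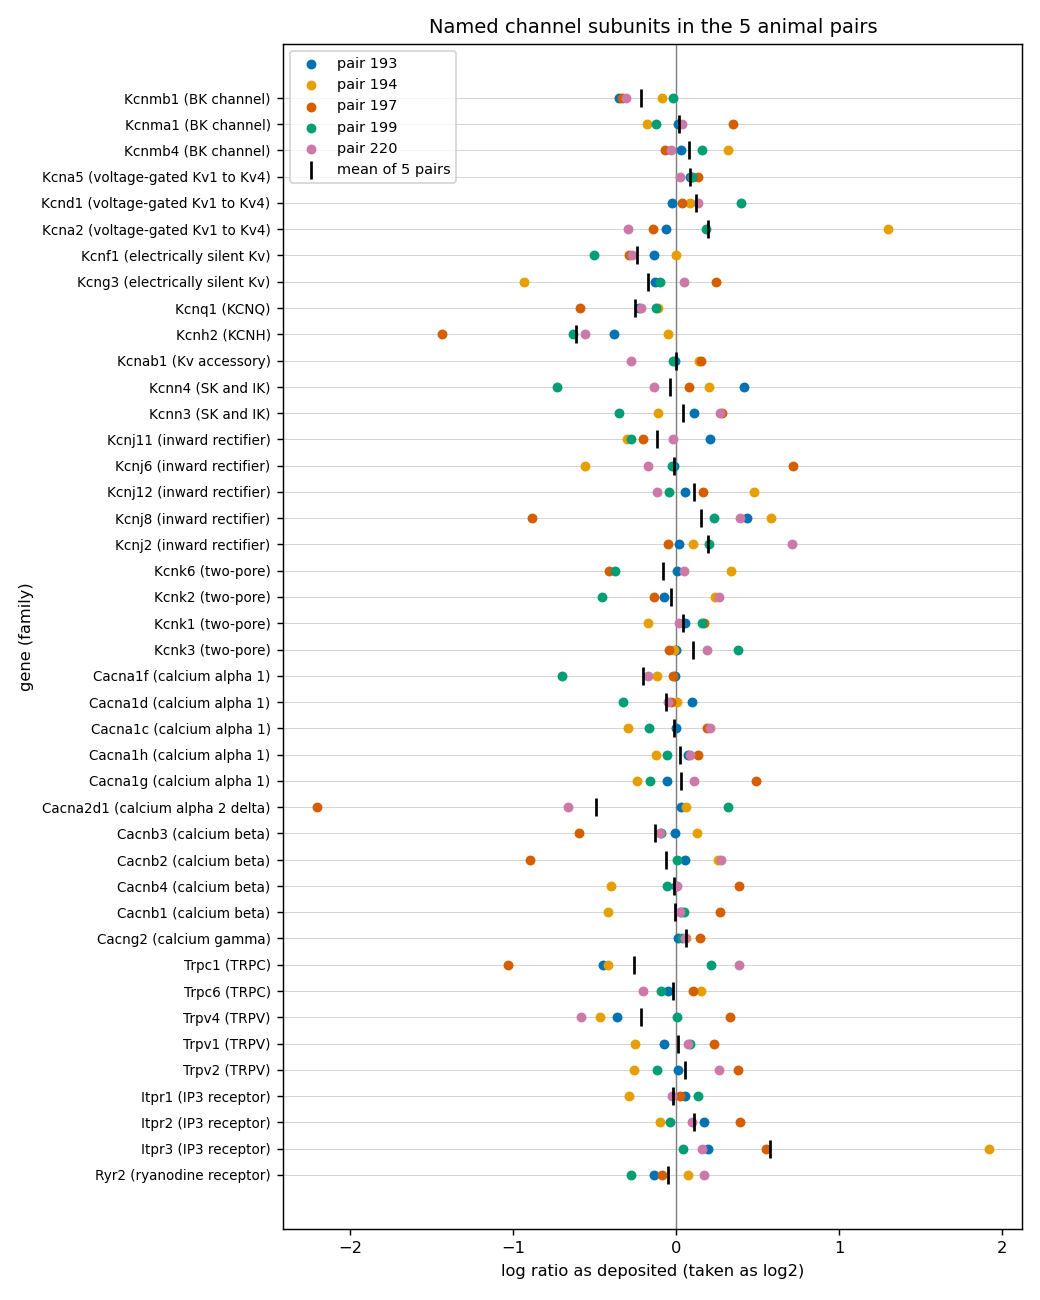
Log ratio (taken as log2) of 42 named channel subunits in the 5 animal pairs, with 1 coloured point per pair and a black bar at the mean, and genes ordered by family. Most genes lie near 0 with pairs on both sides, whereas Cacna2d1 at -2.21 (pair 197) and Itpr3 at 1.92 (pair 194) stand far out in a single pair.

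The BK channel showed its pore and its smooth muscle subunit at different values. Kcnma1, the pore, was at 0.012, -0.18, 0.35, -0.12 and 0.035 in pairs 193, 194, 197, 199 and 220, the order kept in all lists below. Its mean was 0.020 ± 0.21, with 3 pairs above 0 and 2 below. Kcnmb1, the beta subunit that raises the calcium sensitivity of the channel in smooth muscle, was at -0.35, -0.085, -0.33, -0.017 and -0.31. All 5 pairs were negative, with a mean of -0.22 ± 0.16 (limma, unadjusted p = 0.0378, adjusted p = 0.926). The arrays behind these values, as deposited, differed between the dye orientations. With the DMO animal on Cy3, Kcnmb1 was at -0.63, -0.085, -0.70, -0.30 and -0.76. With it on Cy5, the values were -0.068, 0.042, 0.27 and 0.14 in pairs 193, 197, 199 and 220. Thus the Cy3 arrays carried nearly all of the negative mean, and 3 of the 4 Cy5 arrays were above 0. Kcnmb4, a beta subunit best known from the brain, had a mean of 0.081 ± 0.16 with pairs on both sides of 0.

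Voltage-gated potassium channels of the Kv1 to Kv4 families, which carry the delayed rectifier and transient currents, had 11 measured members, 8 with a positive mean and 3 with a negative one, and a median of 0.025. Kcna5 encodes Kv1.5, a delayed rectifier of vascular muscle. Its pair values were 0.087, 0.095, 0.13, 0.10 and 0.024, the narrowest spread among the genes with a single sign (mean 0.087 ± 0.039, limma adjusted p = 0.926). The arrays of each pair were less alike, at -0.088 and 0.26 in pair 193 and 0.36 and -0.17 in pair 199, so the narrow spread came from averaging opposite signs. Kcna2, known best from myelinated axons, was at -0.059, 1.30, -0.14, 0.18 and -0.30. Only pair 194 was far from 0, and that pair rests on 1 array. Kcnd1, a subunit of transient A-type channels, had a mean of 0.12 ± 0.16 and Kcnd2 0.11 ± 0.20.

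Electrically silent Kv subunits form channels only together with other Kv subunits. Of 7 members, 5 had a negative mean, and their median was -0.11. Kcnf1 was at -0.14, -0.00067, -0.29, -0.50 and -0.27, a mean of -0.24 ± 0.19 (limma, unadjusted p = 0.0341, adjusted p = 0.926). Its Cy3 array in pair 199 was at -1.08 and its Cy5 array at 0.071, so the largest pair value came from 1 orientation. Kcng3 was low in pair 194 alone, at -0.94, with its other 4 pairs between -0.13 and 0.25. Kcns3 ran from -0.43 in pair 197 to 0.41 in pair 220, with a mean of 0.0049 ± 0.37.

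Kcnh2 and Kcnq1 encode the pores of the rapid and the slow delayed rectifier, known above all from the repolarisation of heart muscle. Kcnh2 was at -0.38, -0.049, -1.44, -0.63 and -0.56, with a mean of -0.61 ± 0.51 (limma, unadjusted p = 0.00893, adjusted p = 0.926). All 5 pairs were negative, pair 197 furthest and pair 194 close to 0. On the 4 arrays of swapped pairs with the DMO animal on Cy3, Kcnh2 was at -0.21, -1.13, -0.27 and -0.70, and on their Cy5 partners at -0.55, -1.74, -1.0 and -0.42. No array was above 0 and no orientation held the pattern alone. Kcnq1 was at -0.23, -0.11, -0.59, -0.12 and -0.22, with a mean of -0.25 ± 0.20 (limma, unadjusted p = 0.0297, adjusted p = 0.926). Its Cy3 arrays were at -0.063, -0.49, -0.021 and -0.15 and its Cy5 arrays at -0.39, -0.69, -0.22 and -0.28 in the swapped pairs. The heart muscle markers measured beside them had pair medians of 0.030, -0.043, 0.15, -0.29 and 0.088 (4 of 7 fixed markers measured), lowest in pair 199. These markers were not alike in pair 197. Myh6 was at -0.72 there, with arrays at -0.077 and -1.36, and Nppa, Tnnt2 and Myl3 were at 0.20, 0.30 and 0.088. The part of heart muscle in the Kcnh2 and Kcnq1 values was not tested.

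The relatives of these pores did not share their values. Of the 8 KCNH genes, 5 had negative means and 3 positive, and apart from Kcnh2 the means lay between -0.12 and 0.12. Kcnq3, a partner in the neuronal M-current, was at 0.025 ± 0.12. Kcne1, the accessory subunit of the Kcnq1 channel, was at 0.016, -0.18, 0.41, -0.015 and -0.015. Kcne2 and Kcne3 had means of 0.041 ± 0.10 and -0.017 ± 0.20. Among all 9 accessory subunits of Kv channels, 5 means were positive and 4 negative, within -0.065 for Kcnip3 and 0.084 for Kcnip2.

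**Figure D2:**
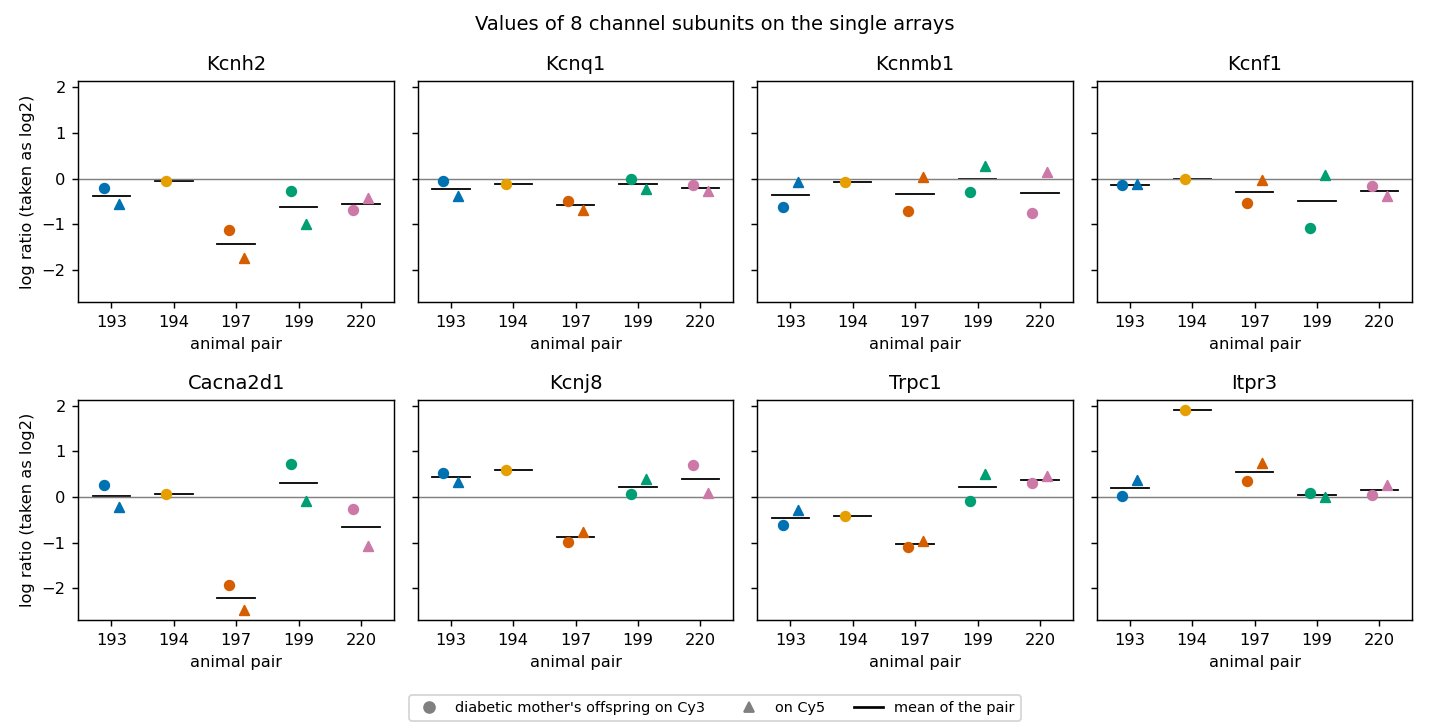
Log ratio (taken as log2) of 8 channel subunits on every array, by animal pair, with circles for the DMO animal on Cy3, triangles for Cy5 and bars for the pair's mean. Kcnh2 and Kcnq1 lie below 0 on all 9 arrays, whereas Kcnmb1 lies below 0 on every Cy3 array and above it on 3 of the 4 Cy5 arrays.

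SK and IK channels are calcium-activated potassium channels whose Kcnn3 and Kcnn4 forms are known from endothelium. Kcnn4 was at 0.42, 0.20, 0.077, -0.73 and -0.14, a mean of -0.036 ± 0.44. Pairs 193 and 199 lay at its ends on both of their arrays, at 0.36 and 0.47 and at -0.34 and -1.12. Kcnn3 was at -0.35 in pair 199, but its 2 arrays there were at 0.21 and -0.90, and its mean was 0.041 ± 0.27. Kcnn1, a form best known from the brain, had its highest value, 0.38, in that pair. The endothelial marker list had medians of 0.15, 0.20, 0.38, -0.10 and 0.030 (8 of 9 markers measured), so it was lowest in pair 199 too, and its part in the Kcnn4 value was not tested.

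Inward rectifiers had 14 members, 7 with positive and 7 with negative means. Kcnj8 encodes Kir6.1, the pore of the ATP-sensitive channel of vascular muscle. It was at 0.43, 0.58, -0.88, 0.23 and 0.40, so that 4 pairs lay above 0 and pair 197 well below. Its mean was 0.15 ± 0.59, and 0.41 without pair 197. Kcnj11, which encodes the related pore Kir6.2, was at 0.21, -0.30, -0.20, -0.28 and -0.020. Abcc9, the sulfonylurea receptor that joins Kcnj8 in vessels, was at -0.14, 0.16, 0.27, 0.19 and -0.19, so the pore and the receptor had opposite signs in pairs 193, 197 and 220. Kcnj2, the strong inward rectifier Kir2.1, was at 0.017, 0.10, -0.049, 0.20 and 0.71. Pair 220 stood highest on both of its arrays, at 0.73 and 0.70. Kcnj12 was at 0.11 ± 0.23. Kcnj3 and Kcnj6, subunits of the G protein-gated channel, had means of -0.23 ± 0.29 and -0.012 ± 0.46.

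Tandem-pore potassium channels, which carry a background leak, had 6 positive and 3 negative means of 9, between -0.13 for Kcnk12 and 0.11 for Kcnk10. Kcnk3 (TASK-1), an acid-sensitive leak channel, was at -0.0017, -0.012, -0.043, 0.38 and 0.19. Its value in pair 199 was alike on the 2 arrays, 0.39 and 0.37. Kcnk2 and Kcnk6 had means of -0.032 ± 0.30 and -0.080 ± 0.32. The sodium-activated channels Kcnt1 and Kcnt2 had means of -0.014 ± 0.17 and -0.0029 ± 0.15.

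The pores of voltage-gated calcium channels had means between -0.20 and 0.14. Cacna1c encodes Cav1.2, the L-type pore through which most depolarisation-driven calcium enters arterial muscle. It was at 0.0014, -0.29, 0.19, -0.17 and 0.21, with a mean of -0.011 ± 0.22 and pairs on both sides. Cacna1d had a mean of -0.060 ± 0.16, and the T-type pores Cacna1g and Cacna1h had 0.028 ± 0.29 and 0.023 ± 0.11. Cacna1f, known from photoreceptors, was at -0.0040, -0.12, -0.020, -0.70 and -0.17. Its value in pair 199 was alike on both arrays, -0.69 and -0.71. Cacna1a, the P/Q-type pore known from nerve endings, was at 0.62 in pair 199, with arrays at -0.029 and 1.27. Cacna1i, a T-type pore, was at -0.53 in pair 194, on its 1 array. Of the 7 pore genes, 3 had positive and 4 had negative means, and of the 7 gamma subunit genes likewise 3 and 4.

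Among the auxiliary subunits of the same channels, Cacna2d1 and Cacnb2 had the widest ranges over pairs. Cacna2d1 encodes the alpha-2-delta subunit that brings the pore to the membrane. Its values were 0.030, 0.058, -2.21, 0.32 and -0.66, a mean of -0.49 ± 1.02 and the only range over pairs above 2 among the members (2.26% of all features). Without pair 197 the mean was -0.064. In every swapped pair the Cy3 array of Cacna2d1 lay above its Cy5 array. The 2 had opposite signs in pairs 193 (0.27 and -0.21) and 199 (0.73 and -0.091). Cacnb2, a beta subunit, was at 0.056, 0.26, -0.89, 0.0025 and 0.27. Cacnb3 was at -0.0067, 0.13, -0.59, -0.093 and -0.10, but its 2 probes differed in pair 197, at -1.02 and -0.17. Cacnb1 and Cacnb4 were at 0.27 and 0.39 in pair 197, on the other side of 0 from Cacnb2 and Cacnb3. All 4 beta subunit means were negative, between -0.13 and -0.0095.

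TRP channels admit calcium and sodium upon stretch, receptor activation or store emptying. Trpc1, a subunit linked to store-operated and receptor-operated entry, was at -0.45, -0.42, -1.03, 0.21 and 0.38. Pairs 199 and 220 lay above 0 and the other 3 pairs below, but in pair 199 the Cy3 array was at -0.090 and the Cy5 array at 0.52. Trpc6, a diacylglycerol-gated channel of vascular muscle, had a mean of -0.017 ± 0.15. Trpv4, a channel of endothelium and muscle known for opening BK channels through local calcium, was at -0.36, -0.46, 0.33, 0.0032 and -0.58, and pairs 197 and 220 had like values on their 2 arrays, 0.35 and 0.30 against -0.75 and -0.42. Trpv1, the capsaicin receptor, and Trpv2 had means of 0.013 ± 0.18 and 0.056 ± 0.26, and Trpv6, an epithelial calcium channel, -0.21 ± 0.26. Trpm2 was at 0.10 ± 0.13 and Trpm8 at -0.051 ± 0.25.

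Release channels of the calcium store were led by Itpr3, an inositol trisphosphate receptor. It was at 0.20, 1.92, 0.55, 0.043 and 0.16, positive in all 5 pairs but far from 0 in pair 194 alone. Its mean was 0.57 ± 0.78 (limma, unadjusted p = 0.0554, adjusted p = 0.926), and 0.24 without pair 194. Pair 194 has no array in the other dye orientation. The same array gave 1.30 for Kcna2, 3.77 for the Schwann cell marker Pmp22 and 5.29 for Scn7a, a sodium channel-like gene of Schwann cells and neurons. The Schwann cell list had a median of 0.79 there and between -0.024 and 0.10 in the other pairs (4 of 6 markers measured), and its part in the Itpr3 and Kcna2 values was not tested. Itpr1 and Itpr2, the other receptors of the family, had means of -0.020 ± 0.16 and 0.11 ± 0.19. The 2 probes of Itpr2 had means of -0.050 and 0.26, the widest gap among the 6 genes with 2 probes. Ryr2, the ryanodine receptor measured here, was at -0.14, 0.072, -0.087, -0.28 and 0.17, with pairs on both sides of 0. Ryr1 and Ryr3 were not analysed here.

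**Figure D3:**
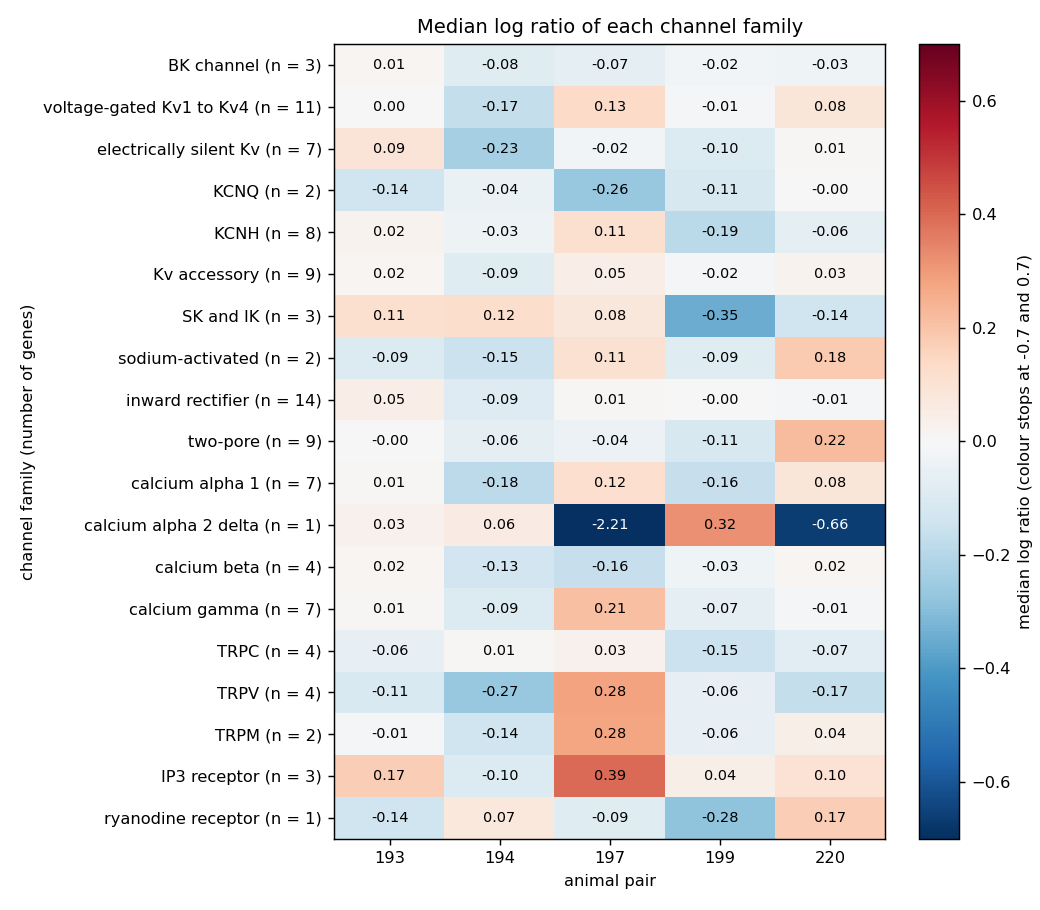
Median log ratio (taken as log2) of 19 channel families, with the number of genes in each, by animal pair. Red is positive and blue negative as deposited. Apart from the single alpha-2-delta gene at -2.21 in pair 197 and -0.66 in pair 220, no family median exceeds 0.39 in size.

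How far the channel genes were from 0 depended on the pair. Their SD over genes was 0.14, 0.34, 0.40, 0.24 and 0.23 in the 5 pairs, each below that of all features (0.21, 0.38, 0.45, 0.34 and 0.25). Pair 194 rests on 1 array and the others on the mean of 2, so these spreads do not compare alike. Members over 0.5 in size numbered 0, 8, 10, 8 and 5, beside 3.44%, 13.3%, 15.1%, 10.1% and 4.92% of all features. The member medians were 0.012, -0.098, 0.098, -0.062 and 0.025, and those of all features were 0.0087, -0.033, 0.076, -0.041 and 0.016, of the same sign in each pair. Altogether 76 members (75.2%) stayed within 0.5 of 0 in all pairs, beside 67.2% of all features. A range over pairs above 1 was reached by 10 members, against 15.3% of all features. These were Cacna2d1, Itpr3, Kcna2, Kcnj8, Trpc1, Kcnh2, Kcnj6, Kcng3, Cacnb2 and Kcnn4.

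Pair 197 held the lowest channel values. Cacna2d1 (-2.21), Kcnh2 (-1.44), Trpc1 (-1.03), Cacnb2 (-0.89) and Kcnj8 (-0.88) lay below -0.8, a bound chosen after the values were seen and passed by 5.35% of all features. Their 2 arrays were alike, at -1.92 and -2.49 for Cacna2d1, -1.13 and -1.74 for Kcnh2, -1.10 and -0.96 for Trpc1, -1.05 and -0.73 for Cacnb2 and -0.99 and -0.77 for Kcnj8. In all, 8 members lay below -0.5 (10.5% of all features) and 2, Kcnj6 and Itpr3, above 0.5 (4.64%), shares of the members no larger than those of all features, although the median of all members in this pair was positive. Kcnj6 was at 0.24 and 1.19 on the 2 arrays. Beside these values, the contractile smooth muscle markers had a median of -0.80 in pair 197 (8 of 11 measured), the adipocyte markers 2.27 (8 of 9) and the fibroblast markers 1.48 (3 of 4). In pair 199 the adipocyte median was 2.29 as well, with a contractile median of 0.076. There Kcnh2 was at -0.63, negative on both arrays, while Cacna2d1, Trpc1, Cacnb2 and Kcnj8 were at 0.32, 0.21, 0.0025 and 0.23. Of these, Kcnj8 was positive on both arrays. The others average opposite signs, at 0.73 and -0.091 for Cacna2d1, -0.090 and 0.52 for Trpc1 and 0.27 and -0.26 for Cacnb2. In pair 193 the contractile median was -0.60, with Trpc1 and Kcnh2 at -0.45 and -0.38 and Cacna2d1, Cacnb2 and Kcnj8 at 0.030, 0.056 and 0.43. Here too the arrays had opposite signs for Cacna2d1 (0.27 and -0.21) and Cacnb2 (-0.44 and 0.55), and the same sign for Trpc1, Kcnh2 and Kcnj8. The part of these cell types in the channel values was not tested.

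Promoters are shown for 3 of the 5 genes below -0.8 in pair 197, because these genes were low on the same arrays. The sequences of Cacna2d1, Cacnb2 and Kcnj8 are from RefSeq (GRCr8), and those of Kcnh2 and Trpc1 were not analysed here. Each sequence runs from 250 bases before to 50 bases after the start of the gene, on the gene's strand, and capitals mark GC boxes, the letters GGGCGG on either strand, so CCGCCC as well.
Cacna2d1, chr4:20330098-20330397, minus strand: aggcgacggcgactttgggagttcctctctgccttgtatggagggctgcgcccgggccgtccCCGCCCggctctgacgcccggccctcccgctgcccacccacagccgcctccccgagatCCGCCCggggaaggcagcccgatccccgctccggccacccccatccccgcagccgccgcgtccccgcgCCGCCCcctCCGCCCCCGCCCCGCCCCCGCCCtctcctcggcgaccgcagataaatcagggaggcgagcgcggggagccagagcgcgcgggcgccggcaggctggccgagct
Cacnb2, chr17:82472965-82473264, plus strand: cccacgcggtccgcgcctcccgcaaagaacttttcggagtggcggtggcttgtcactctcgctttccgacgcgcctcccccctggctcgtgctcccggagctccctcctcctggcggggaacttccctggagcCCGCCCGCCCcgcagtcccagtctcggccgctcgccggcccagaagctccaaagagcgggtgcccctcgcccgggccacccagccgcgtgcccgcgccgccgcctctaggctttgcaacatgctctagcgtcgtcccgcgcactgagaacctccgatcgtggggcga
Kcnj8, chr4:177246499-177246798, minus strand: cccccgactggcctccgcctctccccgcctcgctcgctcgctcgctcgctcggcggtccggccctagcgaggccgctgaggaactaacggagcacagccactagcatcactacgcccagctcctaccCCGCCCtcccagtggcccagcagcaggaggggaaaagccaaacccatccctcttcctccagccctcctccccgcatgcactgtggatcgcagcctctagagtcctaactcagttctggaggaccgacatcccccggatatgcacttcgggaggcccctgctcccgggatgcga

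Cacna2d1 held 7 GC boxes in a sequence of 78.3% G and C, with 1 base shared by neighbouring boxes. Cacnb2 held 2, which overlap in 2 bases, at 71.7% G and C, and Kcnj8 held 1 at 67% G and C. A GC box was found in 38 of the 71 member promoters in the table (53.5%), beside 34.9% of all 27457 promoters. The member promoters were also richer in G and C, with a median of 61.7% against 52.3%, and a GC box is made of these bases. TATAAA, searched on both strands, was in 5.63% of member promoters and 14.3% of all. The E-box CANNTG was in 70.4% and 71.6%. The CArG box, which serum response factor binds in contractile genes, was in 0 of 71 member promoters and 1.64% of all. These are matches of letters in a window of 300 bases and say nothing of binding.

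In 3 of the 4 swapped pairs, most channel genes had opposite signs on the 2 arrays. The arrays gave opposite signs for 69 members in pair 193 (68.3%, beside 56.1% of all features), 36 in pair 197 (35.6%, beside 31.6%), 58 in pair 199 (57.4%, beside 55.9%) and 57 in pair 220 (56.4%, beside 53.5%). Over the 101 members, r between the orientations was -0.17, 0.68, -0.28 and 0.091 in these pairs, as a description of genes that share arrays. Over all features it was 0.18, 0.67, -0.19 and 0.068. Pair 197 was thus the pair in which its arrays gave like values, for all features as for the channel genes. In pair 193 the r of the members and that of all features had opposite signs. Among members over 0.3 in size on both arrays, 17 had the same sign and 2 opposite signs in pair 197, and 7 had the same sign and 10 opposite signs in pair 199. In pair 199, Trpc5 was at -1.50 on the Cy3 array and 0.45 on the Cy5 array, Kcnk4 at 0.93 and -1.14, and Kcnk10 at -0.80 and 0.90. Their pair means, -0.52 for Trpc5, -0.11 for Kcnk4 and 0.048 for Kcnk10, thus average arrays of opposite sign.

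**Figure D4:**
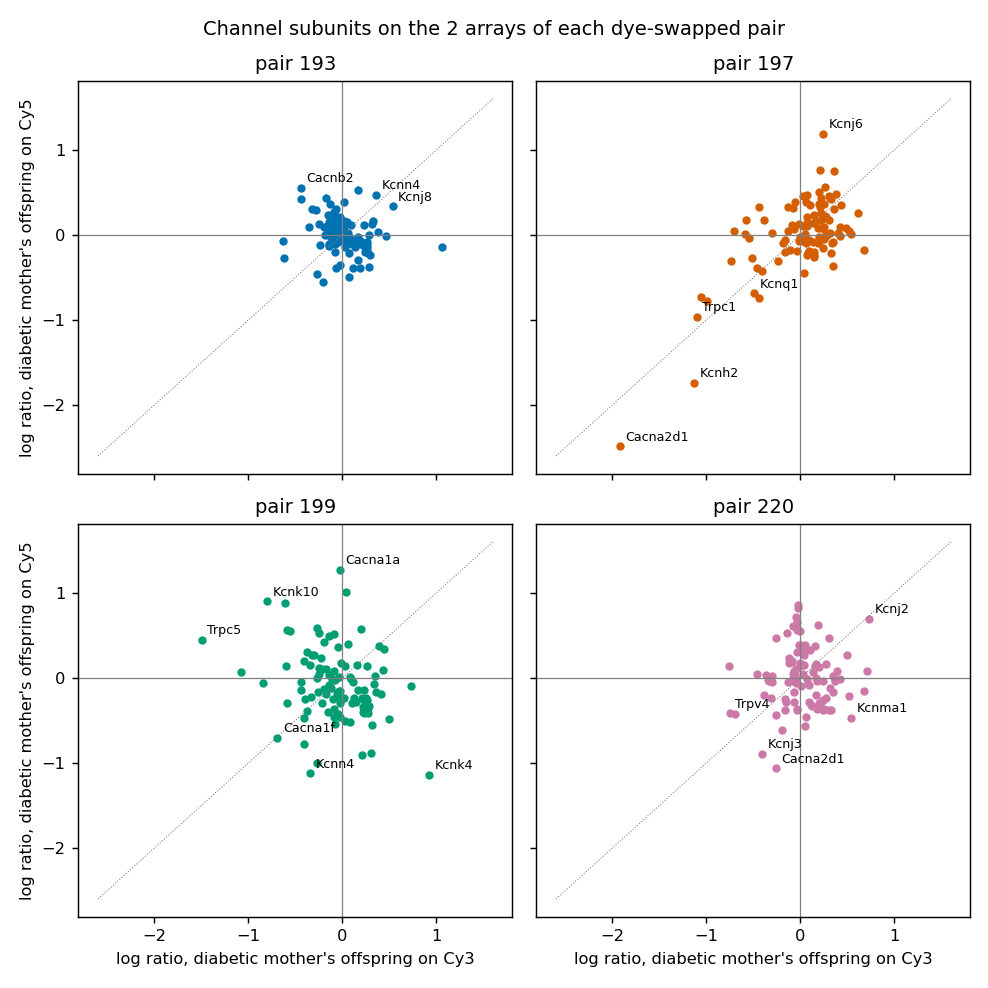
Log ratio (taken as log2) of the 101 channel subunits on the array with the DMO animal on Cy3 (horizontal axis) against the array with it on Cy5 (vertical axis), 1 panel per swapped pair, with the dotted line of equal values. In pair 197 the genes far from 0 lie near that line (r = 0.68, beside 0.67 over all features), and in pair 199 genes such as Trpc5 and Kcnk4 lie in the quadrants of opposite sign.

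The members with a single sign differed between the orientations. All 5 Cy3 arrays had a single sign for 10 members (12% of all features), and all 4 Cy5 arrays for 17 (22%). Kcnh2 and Kcnq1 had the same sign in both orientations, whereas Kcnh1 was negative on all Cy3 arrays and positive on all Cy5 arrays. If the authors did not turn the swapped arrays, the sign of the Cy5 arrays must be turned before averaging. As deposited, the adipocyte marker Ucp1 was at 5.05 and 4.62 on the 2 arrays of pair 197, and Adipoq at 2.95 and 3.60 in pair 199. Once turned, such like values nearly cancel, whereas values of opposite sign, such as those of Kcnk4 in pair 199, add up. Which reading holds was not tested. With the Cy5 arrays turned, no feature passed limma's test at an adjusted p under 0.05 (0%). The smallest adjusted p of a member was then 0.165, that of Kcnj6 at -0.38. A single sign in all 5 pairs was then held by 16 members, against 20% of all features. Kcnh2 would be at 0.13 and Kcnq1 at 0.063, on the other side of 0, whereas Cacna2d1 would be at 0.28 (limma adjusted p = 0.194) and Kcnmb1 at -0.30 (limma adjusted p = 0.180). Kcnmb1 was the 1 member with the same single sign in all 5 pairs in both readings, which 1.26% of all features had. A swapped pair keeps its sign in both readings whenever its Cy3 array has that sign and is larger in size than its Cy5 array. The property thus cannot tell a value that follows the dye from one that follows the groups.

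Some partner genes of the channels that fill or hold the calcium store differed strongly from pair to pair. Of a list of 68 partners, 49 were measured, 26 with a positive mean, and none passed limma's test at an adjusted p under 0.05 or an unadjusted p under 0.05. Their median was 0.0100, and 13 of the 49 (26.5%) had a range over pairs above 1, beside 15.3% of all features and 9.9% of the members, differences that were not tested. Atp2a2 encodes the pump SERCA2, which refills the store. It was at -1.11, 1.16, -2.55, 0.14 and 1.03, with like values on the 2 arrays of pairs 193 (-1.16 and -1.06), 197 (-2.59 and -2.52) and 220 (1.19 and 0.88). Pln (phospholamban), the inhibitor of that pump, was at -0.38, 0.65, -1.38, 0.76 and -0.73, and so had the sign of Atp2a2 in 4 pairs but not in pair 220. Jph2, which ties the store to the surface membrane, was at -0.48, 0.68, -1.08, 0.76 and -0.24. Hrc, a calcium-binding protein of the store, was at 0.031, 0.21, -2.93, -0.012 and -0.73. Pair 197 was the lowest for all 4, as it was for Cacna2d1, Cacnb2, Trpc1 and Kcnj8, but these genes were named after their values were seen. Other store genes of the list lay on both sides of 0 in pair 197. Asph was at 0.37, Sln at 0.25 and Casq1 at 0.13, and Casq2 was at -0.088 and Canx at -0.39. In pair 197, 8 of the 49 partners lay below -1, beside 3.3% of all features. Over all 49 partners the pair medians were -0.016, 0.034, 0.12, 0.027 and 0.029, so pair 197 was not low for the list as a whole. Trdn (triadin) and Prkg1 (the cGMP-dependent kinase) were the 2 partners with a single sign in all pairs, positive at 0.14 ± 0.085 and 0.15 ± 0.11.

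**Figure D5:**
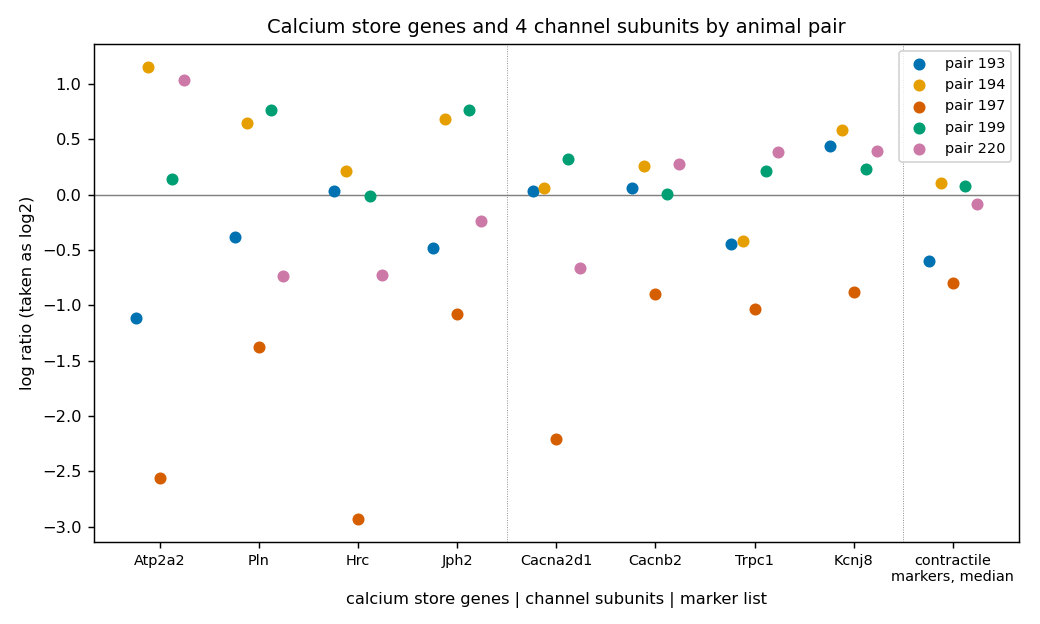
Log ratio (taken as log2) of 4 calcium store genes, 4 channel subunits and the median of the contractile smooth muscle markers, with 1 point per animal pair. Pair 197 is the lowest point in each column, down to -2.93 for Hrc, and for Kcnj8 and Cacnb2 it is the 1 pair below 0. The genes shown were chosen after their values were seen. The median of all 49 measured partner genes, not shown, was 0.12 in that pair.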

How the data were processed

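RNA of rat thoracic aortas was hybridised to 2-colour Agilent arrays, and the 9 arrays analysed here hold 5 pairs of animals. The design text names 10 samples, of which 1 is not analysed here. The deposited values are 1 log ratio for each of 22575 features, taken as log2, and how the authors scanned, corrected and normalized them is not given in the sources used here. Signals were not used here, so dim features and control spots stayed in, there is no depth, and precision is limited by the number of arrays. Every array's mean was 0 as deposited, and scale and direction stay unknown. Littermates among the animals would make p-values too small.

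Gene names come from the platform's annotation, which gives 1 symbol to 12750 features, several to 5 and none to 9820. They rest on a numbering of the features over 105 rows and 215 columns, chosen after seeing the data. With it, r between the first 2 probes of a gene over 2266 genes was 0.0818 to 0.232 on the 9 arrays, against at most 0.0786 on any array in 13 other numberings, the row numbers as deposited among them. All 101 member symbols are current in RefSeq.

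The 2 arrays of a pair were averaged, then probes of a symbol, and limma 3.58.1 (R 4.3.3) tested the mean of the 5 pairs against 0 over 19478 features, with Benjamini-Hochberg adjustment. Values were used as deposited, and turning the sign of the Cy5 arrays was an alternative. The test was tested on simulated data. Members, lists and tests were chosen with earlier results of these data known. Genes named are 51 chosen by role in vessels (36 measured), members with a single sign in all pairs, and the 10 with the widest range, 42 in all. Other members are named for their family, pair or array values and were chosen after these were seen. Further alternatives were other centring, scaling, the mean dye part subtracted from pair 194, probes kept separate, symbols only, no moderation, the 9 arrays with the pair as a replicate block, each pair left out, and, added after seeing the data, a single dye orientation and no pairs 197 and 199.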

Additional observations from a re-analysis of the deposited data

Results flagged for a closer look

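In 5 of 43 values tested, the 42 named genes and the member median, 1 animal pair lay apart from the other 4 by more than Dixon's limit, the nearest gap against the whole range. Chance gives about 1 in 20 such results, and 7.64% of all features passed the limit, as did 7 of the 101 members. The named genes include those picked for a wide range or a single sign. Of these, 3 lay in pair 197. Kcnj8 was at -0.88 there and between 0.23 and 0.58 in the other pairs. Cacnb2 was at -0.89 there and between 0.0025 and 0.27 elsewhere. Kcnq1 was at -0.59 there and between -0.23 and -0.11 elsewhere, so all of its pairs stayed negative. In pair 194, measured on 1 array, Itpr3 was at 1.92, against 0.043 to 0.55 in the other pairs. In pair 199, Cacna1f was at -0.70, against -0.17 to -0.0040 in the others, and its 2 arrays there were at -0.69 and -0.71.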

How the results depend on the processing

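No channel gene passed limma's adjusted threshold under any of the 16 alternatives. Over all features the count was 0 except without moderation, where it was 1 (738 features at an unadjusted p under 0.05). The median of the member means ran from -0.035 without pair 197 to 0.026 without pair 194 when single pairs were left out, and the number of members with a positive mean from 38 to 58, so no direction of the members as a group held. With the 9 arrays fitted with the animal pair as a replicate block, which pairs the arrays of the same 2 animals, it was 0.0069, with 52 positive means. There limma gave 4 of the 101 members at an unadjusted p under 0.05, beside 1393 of all 19478 features, and a smallest member adjusted p of 0.408. The correlation that this fit took between the arrays of a pair was only 0.080, so it counted them nearly as separate replicates. Turning the sign of the Cy5 arrays gave a median of -0.00048 and changed the sign of 18 of the 42 named genes. Only the 5 Cy3 arrays gave -0.0049 and only the 4 Cy5 arrays 0.0036, with 8 and 14 named genes changing sign. Kcnmb1 was at -0.50 on Cy3 arrays alone and 0.096 on Cy5 arrays alone. Without pairs 197 and 199 the median was -0.018. The mean of Kcnh2 without pair 197 was -0.41. The causes were not tested. All values are ratios without signals, so dim probes, direction and the base of the logarithm limit every value above.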

Other observations

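Among the marker lists not described above, the neuron markers had pair medians of 0.053, -0.14, 0.16, -0.16 and 0.15 in pairs 193, 194, 197, 199 and 220 (9 of 10 measured), the leukocyte markers 0.13, -0.21, 0.16, -0.073 and 0.13 (5 of 5) and the skeletal muscle markers -0.092, -0.18, 0.045, -0.086 and -0.078 (5 of 12). Among the channel partners, Pkd1 (polycystin-1) was at 0.33, -0.26, -1.58, -0.019 and -0.85. Tpcn2, a calcium channel of endosomes and lysosomes, was at -0.22, 0.16, -1.67, -0.71 and 0.11. Rrad, a small GTPase that inhibits voltage-gated calcium channels, was at 0.43, -0.088, -1.21, -0.26 and 0.27. All 3 had their lowest value in pair 197, on both of its arrays below -1. Abcc8, the sulfonylurea receptor best known from pancreatic beta cells, was at 0.75 in pair 199, where its 2 arrays were at -0.069 and 1.58.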
